A study of Rattus norvegicus with 62 samples.

Results

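Livers of male Crj:CD(SD)IGS rats initiated with diethylnitrosamine (DEN) at a high or a low dose were compared at the end of a 2-stage liver carcinogenesis protocol, across all genes measured. The 9 liver samples were those labelled 10w DEN30/PB (30 mg/kg of DEN, n = 4) and 10w DEN3/PB (3 mg/kg, n = 5), out of 62 in the whole series; the labels write the dose as mpk, read here as mg/kg. The samples were picked by these labels alone, without use of any measured value. All 9 animals received DEN for 1 or 2 weeks and then nothing for 2 weeks. They then drank water with 500 ppm of phenobarbital (PB) for 6 weeks, and part of the liver was removed 1 week after phenobarbital began. That resected tissue is the 5w sample of the same animal, and the liver at euthanasia is the 10w sample. Controls of the week were 10w MC/PB (methylcellulose vehicle, then phenobarbital, n = 4) and 10w MC/water (methylcellulose, then plain water, n = 4), whose tissue was likewise sampled at partial hepatectomy and at euthanasia. Whole liver RNA was measured on Affymetrix rat arrays, so a lower transcript level from fewer cells of a type and one from less RNA per cell cannot be told apart.

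DEN is a procarcinogen that cytochrome P450 enzymes of hepatocytes turn into an alkylating agent, which leaves ethyl adducts on DNA. Phenobarbital is a tumour promoter in rodent liver: through the receptor CAR it induces drug-metabolising enzymes and favours growth of hepatocytes already altered by an initiator. Such altered cells form preneoplastic foci, which in the rat are classically recognised by the placental glutathione transferase Gstp1 and by gamma-glutamyl transferase Ggt1. Partial hepatectomy, used in such protocols, drives the remaining hepatocytes to divide.

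The promoters of Gstp1, Ggt1 and the aldo-keto reductase Akr1b8, the markers of foci with the smallest p between the doses, are shown from 250 bases before to 50 bases after the gene start (RefSeq, build GRCr8, gene strand, 5′ to 3′). They lie at chr1:210769656-210769955 on the minus strand, chr20:13095055-13095354 on the minus strand and chr4:63964171-63964470 on the plus strand, and all 3 genes looked for were found in the table. Capitals mark the match to an AP-1 motif, TGANTCA, or to the core of the antioxidant response element, TGACNNNGC, both searched on both strands.
Gstp1: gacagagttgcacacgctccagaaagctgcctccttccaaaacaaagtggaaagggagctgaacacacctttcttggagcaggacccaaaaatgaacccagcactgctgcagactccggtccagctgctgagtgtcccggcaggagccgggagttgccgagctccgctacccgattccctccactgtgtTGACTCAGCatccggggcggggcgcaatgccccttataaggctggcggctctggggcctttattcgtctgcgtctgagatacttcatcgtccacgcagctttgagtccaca
Ggt1: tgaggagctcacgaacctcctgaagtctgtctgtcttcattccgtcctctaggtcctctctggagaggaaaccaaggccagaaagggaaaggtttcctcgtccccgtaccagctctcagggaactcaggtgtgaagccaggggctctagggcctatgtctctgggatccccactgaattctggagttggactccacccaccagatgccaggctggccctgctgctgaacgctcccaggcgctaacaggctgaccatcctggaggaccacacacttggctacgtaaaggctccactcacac
Akr1b8: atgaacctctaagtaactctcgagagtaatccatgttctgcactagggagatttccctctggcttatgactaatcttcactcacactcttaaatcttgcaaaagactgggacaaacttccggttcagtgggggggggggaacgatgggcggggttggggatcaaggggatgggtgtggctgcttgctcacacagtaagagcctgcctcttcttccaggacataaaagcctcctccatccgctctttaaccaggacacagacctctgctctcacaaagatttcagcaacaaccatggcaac
The Gstp1 window held the AP-1 letters from -61 to -55 relative to the start, and these overlapped a match to the antioxidant core from -61 to -53. The other two windows held neither. Of 33469 promoters of the same length in the table, 7.33% held TGANTCA and 12.1% held TGACNNNGC; of the 8837 among them that belong to genes tested here the shares were 4.8% and 14.8%. A match is a run of letters only.

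The median signal lay between 107.7 and 125.7 on the 9 arrays, 51.4% to 54.8% of the probe sets reached a signal of 100, and no 2 arrays were identical. Within groups the 31 arrays of the week were divided into 2 sets that the labels do not name. The sets are read here from the data of all 62 arrays in the series. The split is by the sign of the first component of the deviations from the group means. This component held 11.8% of the variance of the deviations. Deviations from a group mean cancel within that group, so every group had to fall into both sets by construction. Of the arrays of the week, set 1 has 2 DEN30/PB and 3 DEN3/PB arrays, and set 2 has 2 and 2. Differences are given as DEN30/PB minus DEN3/PB on the scale log2(signal + 25) with their standard error, from limma across 10546 genes. The labels name each replicate as a sample with its own number, and the p-values measure the spread between these samples.

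No gene passed a Benjamini-Hochberg adjusted p of 0.05 between the 2 doses at 10w in limma: 0 of 10546 genes (0%), with a smallest adjusted p of 0.325. The count was 1, Gstp1, when DEN30/PB replicate 4 was left out. At an unadjusted p below 0.05 there were 450 genes (4.27%), of which 239 had the higher mean in DEN30/PB livers (2.27% of all genes) and 211 the lower mean (2%). The 4 DEN30/PB arrays lay wholly outside the range of the 5 DEN3/PB arrays for 179 genes (1.7%), 84 of them above it (0.797%) and 95 below it (0.901%). A difference of at least 1 on the log2 scale, in size, was found for 33 genes higher in DEN30/PB (0.313%) and 7 lower (0.0664%). The median difference over all genes was -0.0017 and the median standard error 0.158. The values that follow therefore describe these 9 livers, and none of them passed the adjusted threshold except where that is stated for another comparison.

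**Figure D1:**
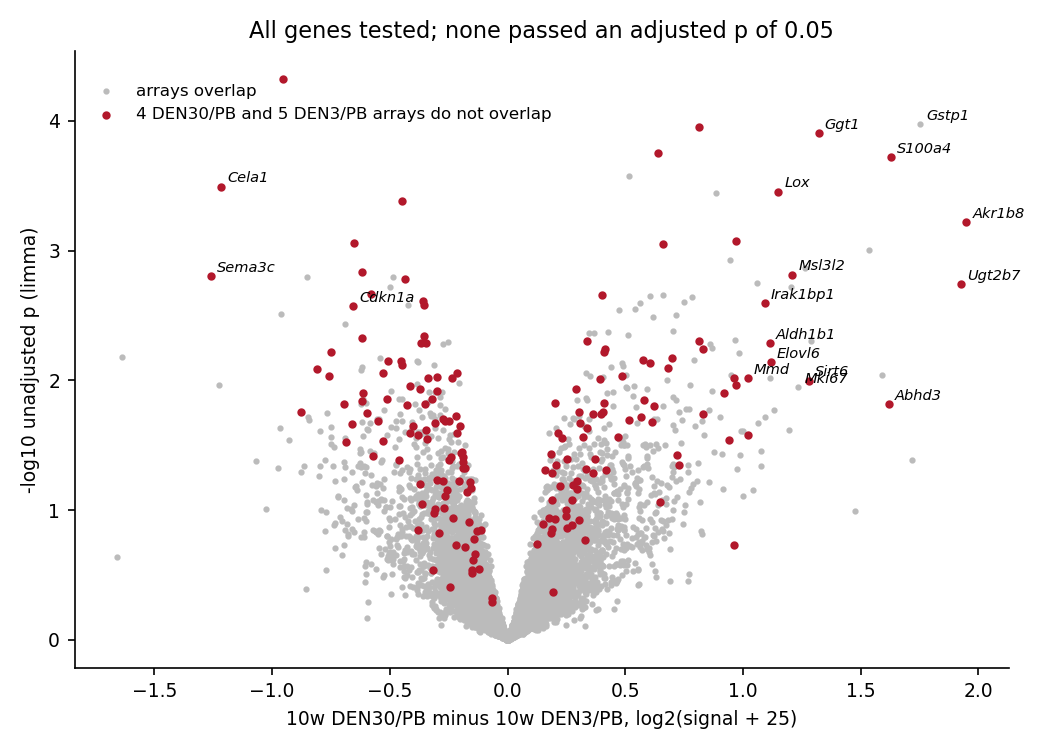
Each point is 1 of the 10546 genes, with the difference of DEN30/PB minus DEN3/PB at 10w on the x axis (log2 of signal plus 25) and the unadjusted limma p on the y axis (as -log10). Red points are the 179 genes whose 4 DEN30/PB and 5 DEN3/PB arrays do not overlap; the labelled genes with the largest differences lie mostly on the right, where 33 genes exceed 1, against 7 on the left.

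Gstp1, Ggt1 and Akr1b8, all markers of preneoplastic foci, had higher mean signals in DEN30/PB livers than in DEN3/PB livers, by 1.75, 1.32 and 1.95 on the log2 scale, and none of the 3 passed the adjusted threshold. Gstp1, the placental glutathione transferase, had signals of 11907, 4174, 13557 and 2634 in the 4 DEN30/PB livers, against 2041, 893.5, 4357, 2162 and 1469 in the 5 DEN3/PB livers. The ranges overlapped: DEN3/PB replicate 3 stood above 2 of the DEN30/PB livers. The log2 SD of Gstp1 was 1.15 in DEN30/PB and 0.83 in DEN3/PB livers, against 0.52 in MC/PB and 0.33 in MC/water livers. The standard error of the Gstp1 difference pools the spread of all groups of the week, these controls included. The difference was 1.75 ± 0.39 (unadjusted p = 0.000106, limma adjusted p = 0.325), a 3.37-fold ratio on that scale. It was 2.42 within array set 1 and 1.24 within set 2, and 2.18 without DEN30/PB replicate 4, where it alone of all genes passed (limma adjusted p = 0.0398). In the control livers Gstp1 read 1728, 953.8, 834.7 and 758.5 with MC/PB and 1065, 842.5, 947.1 and 611.5 with MC/water. Every DEN30/PB liver was above every control liver, and the DEN30/PB minus MC/PB difference of 2.65 ± 0.41 passed the threshold (limma adjusted p = 0.00498), while that of DEN3/PB minus MC/PB was 0.90 ± 0.39 (limma adjusted p = 1). Of all genes, 0.0284% passed between DEN30/PB and MC/PB and 0.019% between DEN3/PB and MC/PB. These contrasts share arrays with the comparison of the doses and are given side by side only.

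Ggt1, the gamma-glutamyl transferase, had signals of 502.5, 690.2, 564.4 and 313.5 in DEN30/PB livers, against 229.5, 154.1, 151.5, 139.8 and 280.7 in DEN3/PB livers. All 4 DEN30/PB arrays lay above all 5 DEN3/PB arrays, with a difference of 1.32 ± 0.30 (limma adjusted p = 0.325). MC/PB livers ranged from 123.3 to 177.6, the DEN3/PB range reaching down into theirs, and the DEN30/PB minus MC/PB difference was 1.65 ± 0.31 (limma adjusted p = 0.046). Akr1b8, an aldo-keto reductase that reduces reactive aldehydes, had signals of 1207, 1758, 1841 and 1036 in DEN30/PB livers, against 231, 239.3, 682.6, 354.1 and 380.5 in DEN3/PB livers. Its groups did not overlap either, and its difference was 1.95 ± 0.51 (limma adjusted p = 0.528). MC/PB livers stood at 115 to 473 and MC/water livers at 61.8 to 149.5. The DEN30/PB minus MC/PB difference of Akr1b8 was 2.46 ± 0.53 and did not pass (limma adjusted p = 0.143).

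For the list of foci markers as a whole, the median and the count above 0 depended on single livers. Of 20 listed genes, 17 were measured above the filter. An unadjusted p below 0.05 was found for 4 of them, all higher in DEN30/PB, beside 2.27% higher of all genes. Of the 17 measured genes 9 had a difference above 0, against 49.4% of all genes. Their median difference was 0.09, beside -0.0017 for all genes. Without DEN30/PB replicate 1 or replicate 4, 13 of 17 were above 0. The median ran from 0.0038 to 0.26 with 1 liver left out in turn, and was 0.04 within set 1 and 0.36 within set 2. The count higher at an unadjusted p below 0.05 stayed at 4 to 5 with 1 liver left out. It was 4 within set 1 and 5 within set 2, where 2.96% and 5.09% of all genes had that p in either direction. At 5w, 14 of 17 members were above 0, with a median of 0.37. The member with the smallest p after these was Scd, the desaturase that makes monounsaturated fatty acids, at 1.59 ± 0.57 with overlapping ranges of 8434 to 29905 in DEN30/PB and 1794 to 12910 in DEN3/PB. Gpx2, a glutathione peroxidase, had 176, 240.2, 813.7 and 129.3 in DEN30/PB livers, against 127.8, 860.3, 772, 668.8 and 181.9 in DEN3/PB livers. Both groups spanned the whole range, and the difference was -0.59 ± 0.89. It turned direction between the array sets, at 0.49 within set 1 and -1.95 within set 2, and ran from -1.11 to -0.29 with 1 liver left out in turn. The differences of Abcc3, an exporter of conjugates, Nqo1, a quinone reductase, Akr7a3, an aflatoxin aldehyde reductase, and Ephx1, the microsomal epoxide hydrolase, were -0.25, -0.09, -0.03 and -0.16. Phenobarbital, which both groups received, also induces these 4, and whether this bears on their differences was not tested. Akr1b8, at 1.95 between the doses, likewise had a higher mean log2 level with MC/PB (8.03) than with MC/water (6.83).

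**Figure D2:**
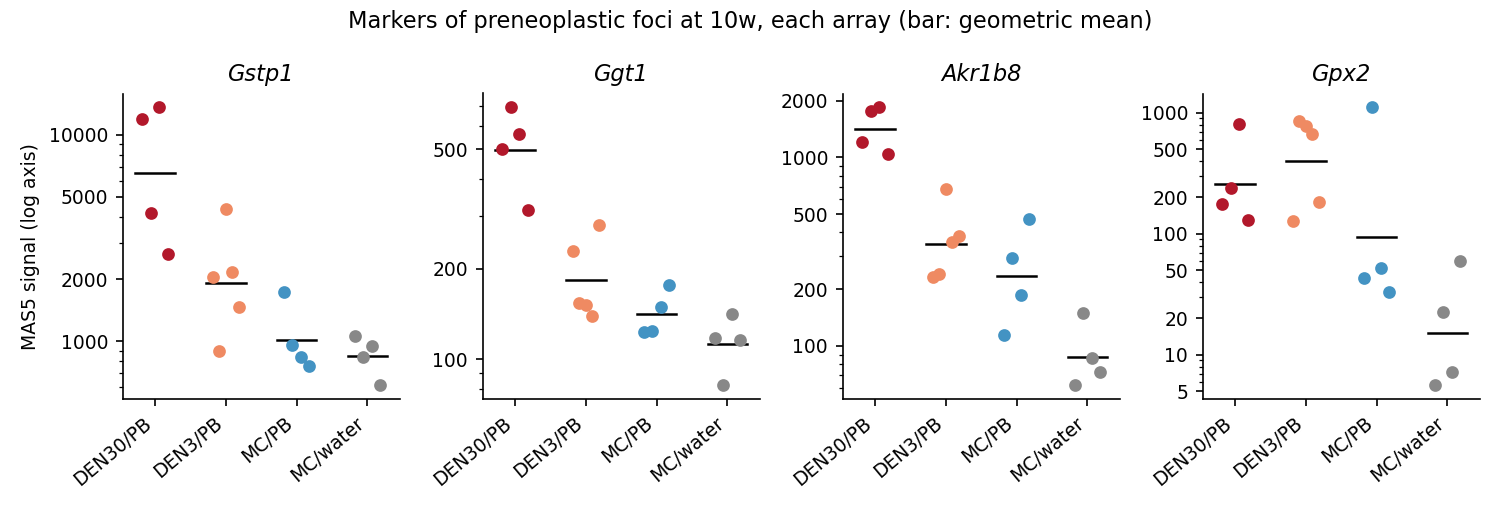
MAS5 signal on a log axis for 4 markers of preneoplastic foci, each point 1 array at 10w and each bar the geometric mean of its group, from DEN30/PB on the left to DEN3/PB, MC/PB and MC/water. The 4 DEN30/PB points clear the DEN3/PB points for Ggt1 and Akr1b8, overlap them for Gstp1 (2634 to 13557 against 893.5 to 4357), and are mixed with them for Gpx2.

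Further genes came from a rule for naming genes that took the smallest p among genes whose groups did not overlap and that differed by at least 1 in size. It gave 12 genes higher in DEN30/PB, out of 13 such genes (0.123% of all genes), and 2 lower (0.019%). Besides Ggt1 and Akr1b8 the higher ones were S100a4, Lox, Msl3l2, Ugt2b7, Irak1bp1, Aldh1b1, Elovl6, Mmd, Sirt6 and Abhd3, and the lower ones were Cela1 and Sema3c. Being picked for their gap, they are descriptions. For 5 of the 12 higher genes (Ggt1, Akr1b8, Ugt2b7, Irak1bp1 and Aldh1b1) the DEN30/PB arrays also lay above all 4 MC/PB arrays, and for Sema3c of the 2 lower genes they lay below all of them. For Msl3l2 it was the DEN3/PB arrays that lay apart from MC/PB, below them.

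Ugt2b7, a glucuronosyltransferase, had 262.5, 653, 580.2 and 232.9 in DEN30/PB livers, against 102.8, 23.81, 196.5, 67.92 and 100.5 in DEN3/PB livers, a difference of 1.92 ± 0.56. Aldh1b1, a mitochondrial aldehyde dehydrogenase, had 957, 487.3, 623.4 and 864.3 in DEN30/PB livers, against 245.9, 475.7, 371.2, 213.7 and 324.9 in DEN3/PB livers. The lowest DEN30/PB liver of Aldh1b1 was thus just above the highest DEN3/PB liver, and the difference was 1.11 ± 0.37. Irak1bp1, a protein that binds the kinase IRAK1, was even within the high dose, with 241.9, 219.6, 247.4 and 222.6. In DEN3/PB livers it read 17.66, 123.2, 128.3, 117.6 and 161.8. The difference of Irak1bp1 was 1.09 ± 0.33, and 0.72 without DEN3/PB replicate 1, its lowest liver.

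Lox, the lysyl oxidase that cross-links collagen and elastin, had 349.6, 295.5, 141.4 and 518.4 in DEN30/PB livers, against 86.63, 130, 135.6, 135.9 and 121 in DEN3/PB livers, a difference of 1.15 ± 0.28 (limma adjusted p = 0.378). Its second probe set gave 0.96 ± 0.29. Both doses were far below the livers without phenobarbital: MC/water livers had 649.1, 1096, 1288 and 2986, while MC/PB livers had 72.11 to 151.6. The highest Lox signals of the 4 groups were therefore those of uninitiated, unpromoted livers.

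For 4 of the 12 higher genes every DEN3/PB array read under 100, the minimum used for the filter, so only a bound on the ratio is given, with signals under 100 set to 100. S100a4, a calcium-binding protein of fibroblasts and leukocytes, had 132.6, 189.4, 109.5 and 264.4 in DEN30/PB livers, against 82.15, 25.39, 16.26, 55.73 and 24.18 in DEN3/PB livers, at least 1.64-fold higher. The MC/PB livers, at 80.4 to 217.2, were as high as the DEN30/PB livers, and those of DEN3/PB were the low ones. The bounds were at least 1.57-fold for Msl3l2, 1.76-fold for Abhd3, a hydrolase acting on phospholipids, and 1.08-fold for Sirt6, a nuclear deacetylase. Abhd3 read 37.07, 425, 375.3 and 1.49 in the 4 MC/PB livers, a spread wider than that between the doses.

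Of the 2 lower genes, Cela1, a pancreatic-type elastase, had 346.5, 543.9, 289.1 and 277.5 in DEN30/PB livers, against 589.5, 1206, 636.4, 711.1 and 1360 in DEN3/PB livers. The difference was -1.22 ± 0.30 (limma adjusted p = 0.378), and MC/PB livers, at 479.6 to 1171, resembled those of the low dose. Sema3c, a secreted semaphorin, had 154, 336.6, 145.7 and 195.5 in DEN30/PB livers, against 409.2, 375.3, 429.6, 496.8 and 1011 in DEN3/PB livers, a difference of -1.26 ± 0.36. Its MC/PB livers stood at 490.3 to 1017 and its MC/water livers at 166.2 to 215.2. The gene with the smallest unadjusted p of all was Plekhb1, a membrane protein with a pleckstrin domain, which lies outside the rule and was picked after its values were seen. Its difference was -0.95 (limma adjusted p = 0.325), and its groups did not overlap.

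Genes of the cell cycle sat higher in DEN30/PB livers as a group, unevenly between animals. Of 44 listed genes 39 were measured; 38 of 39 had a difference above 0, against 49.4% of all genes, and the median was 0.59, beside -0.0017 for all genes. At an unadjusted p below 0.05 there were 14 members higher and 0 lower, against 2.27% and 2% of all genes, and 0 passed after adjustment over all genes. Mki67, the Ki-67 proliferation antigen, had 174.2, 223.7, 283.6 and 248.2 in DEN30/PB livers, against 7.892, 86.13, 201.3, 70.75 and 160.5 in DEN3/PB livers, a difference of 1.23 ± 0.46 (limma adjusted p = 1), and 0.81 without DEN3/PB replicate 1. The DEN30/PB values were close together, and the DEN3/PB values ran from near background to within the DEN30/PB range. Top2a, the topoisomerase of replicating cells, had 309.1, 247.6, 436.3 and 256.9 in DEN30/PB livers, against 88.99, 184.6, 304.8, 59.25 and 389.4 in DEN3/PB livers, and differed by 0.77 ± 0.37, or by 0.46 without DEN3/PB replicate 4. E2f1, a transcription factor of the G1/S step, and Cenpf, a kinetochore protein, were the 2 members whose groups did not overlap. Their differences were 1.02 ± 0.44 and 0.61 ± 0.25. The DEN30/PB arrays lay wholly above the DEN3/PB arrays for 0.797% of all genes.

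The mean log2 level of the 39 cell cycle genes was 8.18, 7.92, 8.45 and 8.08 in the DEN30/PB livers, against 7.16, 7.53, 8.14, 7.13 and 8.10 in the DEN3/PB livers. DEN3/PB replicates 3 and 5 thus stood with the DEN30/PB livers and the other 3 apart below them. MC/PB livers read 7.81, 7.71, 7.40 and 7.43, and MC/water livers 7.34, 6.96, 8.20 and 7.44. MC/water replicate 3, with neither DEN nor phenobarbital, thus lay above 3 of the 4 DEN30/PB livers. The count of members at an unadjusted p below 0.05 was 2 without DEN30/PB replicate 3 and 21 without DEN3/PB replicate 3. Within the array sets it was 1 of 39 in set 1 and 10 of 35 in set 2. The shares of all genes at that p in these fits, in order and in either direction, were 5.27%, 4.64%, 2.96% and 5.09%. All these groups had a partial hepatectomy at 5w, and whether it had a part in the 10w levels was not tested. At 5w, in the tissue taken at that operation, the same list had a median difference of 0.01, with 19 of 38 members above 0 and 0 of 38 at an unadjusted p below 0.05, where 4.9% of all genes were.

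**Figure D3:**
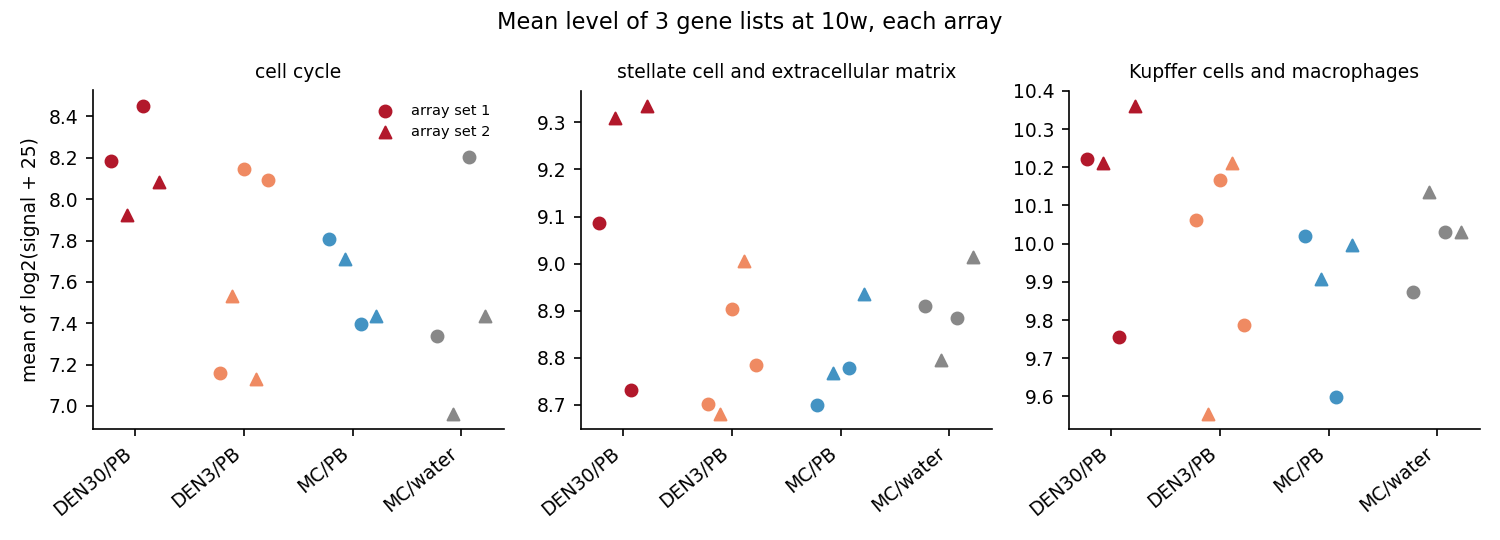
Mean log2(signal + 25) of the measured members of 3 gene lists on each 10w array, with DEN30/PB leftmost, then DEN3/PB, MC/PB and MC/water; circles are array set 1 and triangles array set 2. For the cell cycle the 4 DEN30/PB livers sit at 7.92 to 8.45 while the DEN3/PB livers spread from 7.13 to 8.14, and for the extracellular matrix 3 DEN30/PB livers lie above all DEN3/PB livers and replicate 3 does not.

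Genes of stellate cells and the extracellular matrix, which make and remodel the collagen scaffold, also lay mostly higher at the high dose. Of 45 listed genes 40 were measured, 33 of 40 had a difference above 0, against 49.4% of all genes, and the median was 0.24. An unadjusted p below 0.05 was reached by 13 members, all higher in DEN30/PB, beside 2.27% higher of all genes. Only Lox had groups that did not overlap, beside 1.7% of all genes. Col1a1, the alpha 1 chain of type I collagen, had 441.6, 714.8, 334.5 and 988.6 in DEN30/PB livers, against 298.7, 199.6, 406.1, 321.4 and 294.4 in DEN3/PB livers, a difference of 0.89 ± 0.22, and 0.74 ± 0.20 with its second probe set. DEN30/PB replicate 3 was the one liver inside the DEN3/PB range. Mgp, the matrix Gla protein, Col6a3, a type VI collagen chain, and Mmp2, a gelatinase, differed by 0.66 ± 0.20, 0.56 ± 0.17 and 0.49 ± 0.17. A second Col6a3 probe set, with mean signals of 77.7 in DEN30/PB and 82.0 in DEN3/PB, gave -0.07 ± 0.32. The differences of Des (desmin), Pdgfrb (a PDGF receptor), Lrat (retinol esterification) and Acta2 (smooth muscle actin) were 0.12, 0.06, -0.13 and 0.30. These are only some of the listed stellate cell markers and were picked outside the rule for naming genes. They do not show how stellate cell markers behaved as a set, and no contrast with the matrix genes is drawn from them.

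The mean log2 level of the 40 matrix genes was 9.09, 9.31, 8.73 and 9.34 in DEN30/PB livers, against 8.70, 8.68, 8.90, 9.01 and 8.78 in DEN3/PB livers. Replicate 3, lowest of the high-dose livers here, was the highest of them for the cell cycle and for Gstp1. The count at an unadjusted p below 0.05 was 19 without that replicate and 8 without DEN30/PB replicate 4. It was 1 of 38 within array set 1 and 17 of 39 within set 2. The shares of all genes at that p in these fits, in order and in either direction, were 5.27%, 3.73%, 2.96% and 5.09%. At 5w the list had a median of 0.26, 37 of 40 members above 0, and 12 higher and 0 lower at an unadjusted p below 0.05. Of all genes 4.9% had that p at 5w in either direction. Of the other cell types, the Kupffer cell and macrophage list had 18 of 22 members above 0 with a median of 0.19 and 0 members at an unadjusted p below 0.05. The median turned to -0.05 within array set 1, with 7 of 21 above 0, and was 0.47 within set 2. Without DEN3/PB replicate 2, 11 of 22 were above 0 and the median was 0.04. Its mean level overlapped, at 9.75 to 10.36 in DEN30/PB and 9.55 to 10.21 in DEN3/PB. The lymphocyte list had a median of 0.14 and 2 of 18 members at that p, Ptprc and Coro1a, both pan-leukocyte genes. Of all genes 4.27% had that p at 10w in either direction. The lymphocyte median was -0.01 within set 1 and 0.36 within set 2. Endothelial genes had a median of 0.02 and erythroid genes one of -0.02. The 29 measured hepatocyte genes had a median of -0.06 and 0 members at that p, and their differences ranged from -0.23 to 0.13; albumin, Alb, was at -0.17 ± 0.14. Whether the matrix or leukocyte genes had a part in other differences was not tested.

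**Figure D4:**
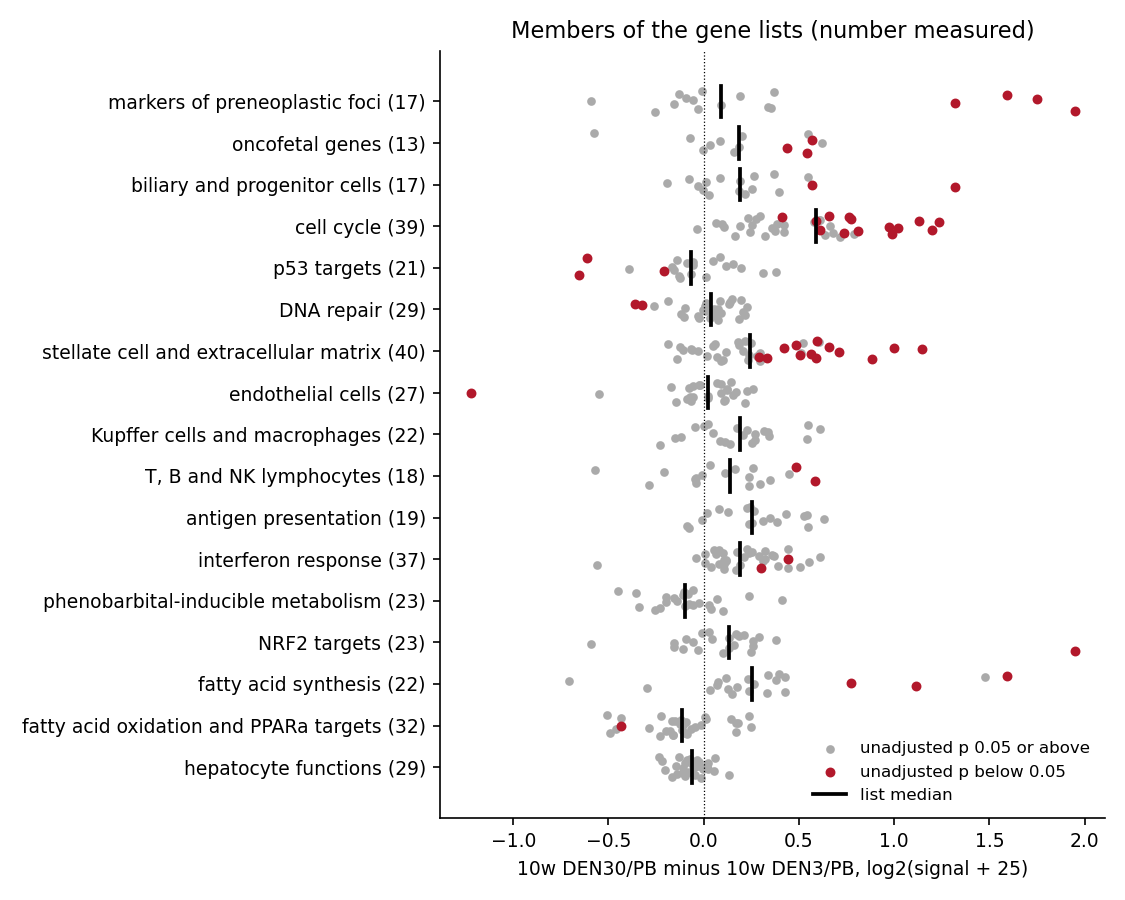
Differences of DEN30/PB minus DEN3/PB at 10w for the measured members of 17 gene lists (number of members in brackets), red where the unadjusted limma p is below 0.05, with the list median as a black bar and no difference as a dotted line. The cell cycle list has the largest median (0.59), while the hepatocyte list is the tightest about 0.

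The p53 targets with a small p were all lower at the high dose. Of 29 listed targets 21 were measured, with a median of -0.06 (0.02 within set 1). At an unadjusted p below 0.05, 0 members were higher and 3 lower, beside 2.27% and 2% of all genes. At 5w the median was -0.10 over 20 members, with 1 higher and 6 lower at that p. Of all genes 4.9% had that p at 5w. Cdkn1a, which encodes the cell cycle inhibitor p21, had 558.4, 752.3, 689.8 and 586.7 in DEN30/PB livers, against 1527, 783.4, 793.2, 1446 and 822 in DEN3/PB livers. All 4 high-dose values lay below all 5 low-dose values, and the difference was -0.65 ± 0.20 (unadjusted p = 0.00268, limma adjusted p = 0.705), with -0.88 ± 0.38 from its second probe set. MC/PB livers read 926.4, 1078, 741.6 and 1368, about as the low dose. Tp53inp1 and Ei24, both p53-induced, differed by -0.61 ± 0.24 and -0.21 ± 0.08, and Mdm2, the ubiquitin ligase of p53, Ccng1, a cyclin induced by p53, and Pvt1, a long RNA beside Myc, by -0.17, -0.13 and -0.06. DNA repair genes had a median of 0.04 over 29 members. Rad17, a checkpoint clamp loader, and Rad50, of the double-strand break complex, were the 2 with an unadjusted p below 0.05. They were at -0.32 ± 0.12 and -0.36 ± 0.15, and a second Rad50 probe set gave -0.09 ± 0.23. Mgmt, which removes alkyl groups from guanine, differed by 0.09 ± 0.18 and Myc by -0.06 ± 0.33.

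Among oncofetal genes, which fetal liver and liver tumours express, 13 of 17 listed were measured. Of these, 10 of 13 were above 0, against 49.4% of all genes, and the median was 0.19. Afp, alpha-fetoprotein, had 1310, 975.2, 1036 and 1661 in DEN30/PB livers, against 676.8, 917.2, 838, 764.8 and 987.9 in DEN3/PB livers. Only DEN30/PB replicate 2 lay inside the DEN3/PB range, and the difference was 0.54 ± 0.17 (limma adjusted p = 0.722). MC/water livers, at 1030 to 1175, had Afp signals like those of the high dose. Krt19, a biliary and progenitor keratin, had 178.9, 254.4, 152 and 136.5 in DEN30/PB livers, against 114.1, 121, 120.7, 88.06 and 111.8 in DEN3/PB livers, and did not overlap. Its difference was 0.57 ± 0.23, and that of Gpc3, the glypican of liver tumours, 0.44 ± 0.21, while H19, an imprinted RNA, differed by 0.19 ± 0.29. In the biliary and progenitor list of 17 measured genes, 13 were above 0. Ggt1 and Krt19 were the 2 with an unadjusted p below 0.05, beside 2.27% higher of all genes. Krt18, a keratin of simple epithelia, was at -0.03.

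Genes of fatty acid synthesis lay mostly higher at the high dose. Of 22 fatty acid synthesis genes 20 were above 0, against 49.4% of all genes, with a median of 0.25. At an unadjusted p below 0.05 there were 3 members, all higher, beside 2.27% higher of all genes. That count was 6 without DEN30/PB replicate 2 and 1 within set 2, where 4.44% and 5.09% of all genes had that p in either direction. Elovl6, the elongase of palmitate, had 736.7, 389.8, 532.4 and 552.5 in DEN30/PB livers, against 151.2, 195.2, 345.1, 194.1 and 354.6 in DEN3/PB livers, and a difference of 1.12 ± 0.39. The MC/PB livers, at 298.4 to 798.6, overlapped the high dose. A second Elovl6 probe set gave 0.65 ± 0.38. Fasn, the fatty acid synthase, differed by 0.78 ± 0.29 and Scd by 1.59 ± 0.57, and for both the MC/PB mean lay between the doses and the MC/water mean above them. Of genes of fatty acid oxidation and PPARalpha, 24 of 32 were below 0, with a median of -0.12. At that p 1 member was lower, beside 2% lower of all genes. Decr1, a reductase for unsaturated acyl-CoA, had 6605, 6673, 5515 and 6412 in DEN30/PB livers, against 8258, 10518, 7163, 10048 and 7155 in DEN3/PB livers. Its groups did not overlap and its difference was -0.44 ± 0.13 (limma adjusted p = 0.705).

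Of the drug-metabolising genes that phenobarbital induces, 17 of 23 measured members were below 0, with a median of -0.10 and 0 at an unadjusted p below 0.05. Without DEN30/PB replicate 2, 3 members were lower at that p, where 4.44% of all genes had it in either direction. The mean log2 level of these genes was 13.08 to 13.71 in DEN30/PB livers, against 13.47 to 13.67 in DEN3/PB livers. It was at most 12.08 in MC/water livers, so all 9 livers lay above the unpromoted ones. Cyp2e1, an enzyme that activates DEN, differed by 0.03 ± 0.14, Cyp3a2 by -0.14 ± 0.09, Cyp1a2 by 0.29 ± 0.29, Aldh1a1 by -0.23 ± 0.19 and Gsta3 by 0.24 ± 0.29. NRF2 targets had a median of 0.13 over 23 members, 1 of which, Akr1b8, had an unadjusted p below 0.05. Of all genes 4.27% had that p in either direction.

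In the lists of transport and growth factor genes few members had a small p, in either direction. Of 25 genes of bile acid and organic anion transport, 1 was higher and 1 lower at an unadjusted p below 0.05, as were 1 and 1 of 31 hepatocyte mitogens and receptors, and 0 and 2 of 19 genes of the growth hormone and IGF axis, beside 2.27% higher and 2% lower of all genes. The higher ones were Abcg5, a canalicular sterol transporter, at least 1.01-fold higher with every DEN3/PB array under 100, and Rb1, the retinoblastoma protein, at 0.46 ± 0.21. Abcb4, the canalicular phospholipid exporter, had 1186, 1177, 1047 and 856.2 in DEN30/PB livers, against 1542, 1320, 1412, 1377 and 1639 in DEN3/PB livers, a difference of -0.45 ± 0.11 (limma adjusted p = 0.399). Pdgfc, a growth factor of the PDGF family, had 141.7, 187.7, 154.9 and 143 in DEN30/PB livers, against 353.7, 225, 237.5, 228.6 and 269.3 in DEN3/PB livers, and differed by -0.65 ± 0.18. For both genes every high-dose liver lay below every low-dose liver. Igfbp1, a secreted binding protein of insulin-like growth factors, had 313.3, 1107, 239.5 and 188 in DEN30/PB livers, against 1567, 1608, 809.7, 1810 and 580.1 in DEN3/PB livers. Of its 4 high-dose livers, 3 lay below all low-dose livers and replicate 2 did not, and the difference was -1.64 ± 0.56.

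At 5w, in the resected tissue of the same animals, 1 gene of 10491 passed the threshold between the doses (0.00953%): Cela1, at 381.1, 254, 246.2 and 311.8 in DEN30/PB livers, against 699.9, 1335, 664.6, 742.7 and 1006 in DEN3/PB livers. Its 5w difference was -1.47 ± 0.25 (limma adjusted p = 0.0205). Gstp1 had 4016, 1565, 5807 and 1349 in DEN30/PB livers at 5w, against 1274, 931.8, 1479, 1114 and 1006 in DEN3/PB livers, a difference of 1.19 ± 0.28 (limma adjusted p = 0.212). Replicates 1 and 3 of DEN30/PB, the highest for Gstp1 at 10w, were the highest at 5w too. Akr1b8 differed by 1.55 ± 0.42 at 5w and Ggt1 by 0.86 ± 0.30. Of the 14 genes picked above, 12 had the same sign at 5w, as did 70.9% of the 175 genes that, like them, did not overlap at 10w and were measured at 5w, and 59.6% of 10312 genes measured at both weeks. Of the 14, 4 again had groups that did not overlap in the same direction. At 5w the groups did not overlap for 1.81% of all genes, with DEN30/PB above for 1.13% and below for 0.677%. S100a4, Msl3l2 and Mmd were at 0.09, -0.23 and -0.01 at 5w. The 2 weeks share their animals, so they are no separate experiment.

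Whether the gap between the doses differed between weeks was tested as an interaction over all 62 arrays. No gene passed, 0 of 10910 (0%), with a smallest adjusted p of 1 in limma and 233 genes (2.14%) at an unadjusted p below 0.05. The change was 0.56 ± 0.50 for Gstp1, 0.46 ± 0.43 for Ggt1 and 0.85 ± 0.52 for Mki67. These standard errors and the 233 genes come from a fit with group only, which does not use the pairing of the weeks by animal. With the animal as a random block (correlation 0.316) the count was 0, the smallest adjusted p was 0.391 and 567 genes (5.2%) had an unadjusted p below 0.05.

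**Figure D5:**
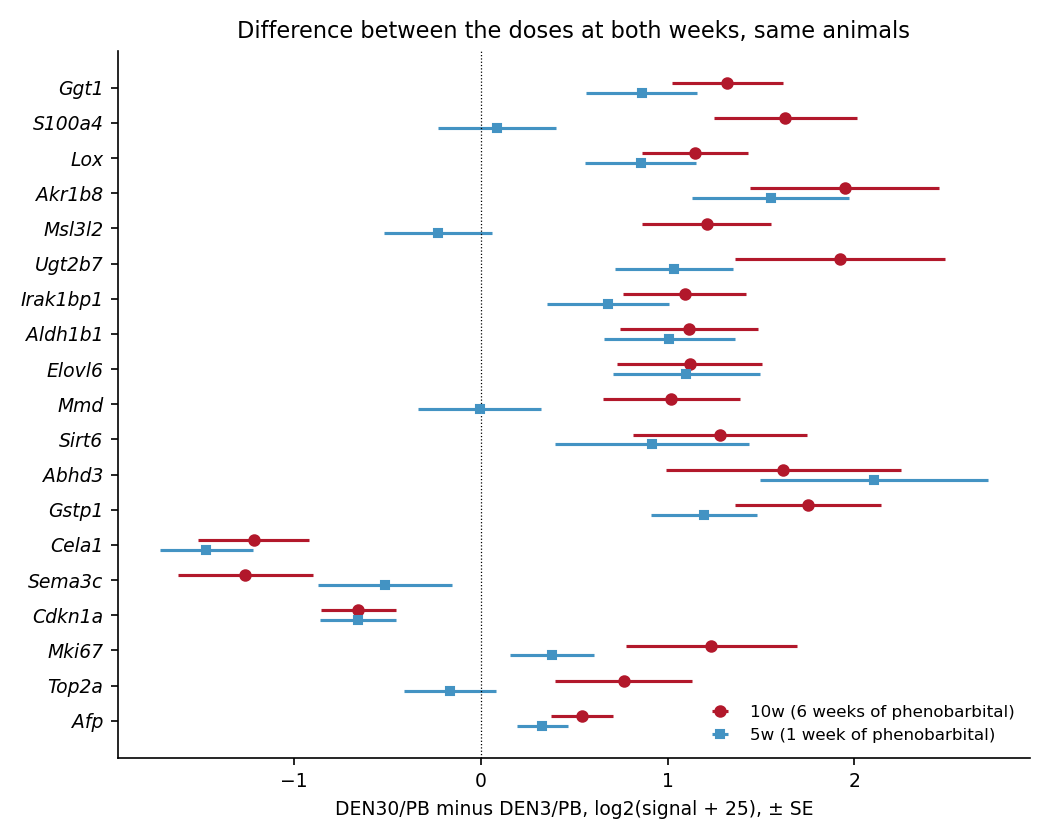
Difference of DEN30/PB minus DEN3/PB with its standard error for 19 genes at 10w (red circles) and in the 5w tissue of the same animals (blue squares), on the log2(signal + 25) scale. Gstp1, Akr1b8, Ggt1 and Cela1 lie on the same side at both weeks (1.75 and 1.19 for Gstp1), whereas S100a4, Msl3l2, Mmd and Top2a are near 0 or opposite at 5w. The red points of S100a4, Msl3l2, Sirt6 and Abhd3 are fitted values of genes for which the text gives only a bound.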

How the data were processed

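The authors hybridised liver RNA to Affymetrix rat arrays; the intensity values they deposited are MAS5 signals on a linear scale (version 5.0, per the submitters' processing notes). The array model is not given in the sources used here. For the 9 arrays the 2% trimmed mean was 500.24 to 500.26, so no rescaling was applied. Only the 20826 of 31099 probe sets with exactly 1 gene symbol entered the gene tests (57 control probe sets, 436 with more symbols and 9780 without one did not); they stand for 14217 genes, and 20758 matched the reference by gene ID. An offset of 25 was added before log2. A probe set needed a signal of 100 on at least 4 arrays of the fit, and each gene took its probe set with the highest mean. limma 3.58.1 (R 4.3.3; lmFit, contrasts.fit, eBayes with trend, two-sided) was fitted on all 31 arrays of 10w with group only, and on 62 arrays for the change between weeks. Precision is limited by the array number.

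Named genes were those passing (0), up to 12 in each direction with the smallest p among genes whose groups did not overlap and that differed by at least 1, 25 fixed markers, and, for each list described, its 4 members of smallest p at most. Plekhb1, E2f1, Cenpf, Mmp2, Des, Pdgfrb, Lrat, Acta2 and Krt18 are named outside this rule. Some genes that the rule gives are not described. The genes, the 35 lists and the tests were chosen with earlier results of these data known. Same-animal arrays of the 2 weeks, which the series' design text says come from the same animal, correlated at 0.247 to 0.392 in their deviations from group means, and each of 9 correlated best with its own number. The steps were tested on simulated data. The array sets were defined from these arrays.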

Additional observations from a re-analysis of the deposited data

Results flagged for a closer look

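In 74 checks of a named gene within a group, 5 found a sample far from the others of its group; chance alone flags about 1 in 20 such groups. Adam8, a membrane metalloprotease, read 45.1 in 10w DEN30/PB replicate 2, where the other 3 livers lay between 99.9 and 103.4. Lox read 86.6 in 10w DEN3/PB replicate 1, with the other 4 between 121 and 135.9. Irak1bp1 read 17.7 in the same liver, with the others between 117.6 and 161.8. Sema3c read 1011 in 10w DEN3/PB replicate 5, with the others between 375.3 and 496.8, and Mdm2 read 1373 in that liver, with the others between 1113 and 1137.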

How the results depend on the processing

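The count of genes passing between the doses was 0 under no offset, an offset of 100, no filter, a signal of 200, quantile normalization, all probe sets, only the 9 arrays, robust moderation, array set as a block and within either set, and 0 to 1 when each liver was left out (1 without 10w DEN30/PB replicate 4, Gstp1 at 2.18). Genes at an unadjusted p below 0.05 numbered 302 within set 1 (2.96%), 511 within set 2 (5.09%) and 540 with the sets as a block (5.12%). With the replicate number as a block the count was 0, with a smallest adjusted p of 0.0544 and 628 such genes (5.95%). Same-numbered livers of the 2 doses correlated at 0.140, 0.098, 0.114 and 0.152 in their deviations, 2 of 4 best with their own number. In both doses replicates 1 and 3 fell in array set 1 and replicates 2 and 4 in set 2. Replicate number and array set thus go together, while the labels state no pairing across doses. For the change between weeks the count was 0 under every alternative run. Of the list medians, 28 values moved by more than 1 SD and 672 did not.

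Some genes changed sign, and the cause was not tested. Within set 1 these were Gpx2 at 0.486 (-1.95 within set 2), Pvt1 at 0.232 and Nqo1 at 0.035. Within set 2 they were H19 at -0.118, Myc at 0.0063, Mgmt at -0.315, Cyp2e1 at -0.026 and Akr7a3 at 0.027. With 1 liver left out in turn, H19 ran from -0.026 to 0.364, Mgmt from -0.035 to 0.274, Abcc3 from -0.552 to 0.096, Nqo1 from -0.235 to 0.043, Pvt1 from -0.158 to 0.078, Myc from -0.358 to 0.251, Akr7a3 from -0.210 to 0.143 and Cyp2e1 from -0.046 to 0.133. The difference of Sema3c was -1.75 within set 1 and -0.69 within set 2, and that of Mmd 1.34 and 0.68; Sirt6 did not pass the filter within set 1. For S100a4, Msl3l2, Sirt6, Abhd3 and Abcg5 every DEN3/PB signal was under 100, so their ratios are bounds.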

Other observations

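Interferon-stimulated genes lay slightly higher in DEN30/PB livers at 10w. Of 37 measured genes 35 had a difference above 0, with a median of 0.19. Irf8, a macrophage transcription factor, and Cxcl11, a chemokine, were the 2 with an unadjusted p below 0.05. Of all genes 49.4% were above 0 and 2.27% were higher at that p. The interferon median was -0.04 within array set 1 and 0.44 within set 2. Within set 2, 9 members had that p, beside 5.09% of all genes in either direction. Antigen presentation genes had a median of 0.26, with 16 of 19 above 0 and 0 at that p. Within set 1 the median was -0.0048 with 9 of 19 above 0. Within set 2 it was 0.58 with 9 members at that p, beside the same 5.09% of all genes. The count was 4 with the sets as a block, where 5.12% of all genes had that p in either direction. It was 5 without DEN30/PB replicate 3 (5.27% of all genes) or without DEN3/PB replicate 1 (3.79%). At 5w the medians of these lists were -0.01 and -0.02. Genes that female rat livers express more than male ones had a median of 0.40 over 11 members, with 2 higher at an unadjusted p below 0.05 (Akr1b7, an aldo-keto reductase, and A1bg, a plasma protein). Their median was 0.29 within set 1 and 0.13 within set 2, and as low as 0.20 with 1 liver left out; the count was 0 within either set and without DEN30/PB replicate 2 or 3. The endoplasmic reticulum chaperone Hspa5 had 21040, 20418, 19882 and 22743 in DEN30/PB livers, against 17823, 18970, 18680, 17189 and 18677 in DEN3/PB livers, without overlap. Its difference was only 0.20 ± 0.08. Gpihbp1, the lipoprotein lipase anchor of capillary endothelium, was at -1.22 ± 0.45, while the 27 endothelial genes had a median of 0.02.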
